A study of Oryza sativa with 16 samples.

Results

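The loci described here lie around qDTY1.1, a drought-yield locus on rice chromosome 1. They were taken by number, from LOC_Os01g65500 to LOC_Os01g68000 in the order of the rice genome annotation. The rule used no expression difference, but the members were chosen with earlier results of these data known. Of 239 loci in that range, 171 had at least 10 counts over the 16 flag-leaf libraries, and 169 of these were kept, against 28283 loci with at least 10 counts in the whole table of 55801. The other 2 are not reported here. A further 29 loci of the range had 1 to 9 counts and 39 had 0. The threshold fell between LOC_Os01g67280, kept with 12 counts in all, and LOC_Os01g65830 and LOC_Os01g67640, left out with 9 each.

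The libraries came from 2 rice genotypes. DTY-IL is a drought-tolerant introgression line, a single line at the F7 generation that carries fragments of the donor N22 in a Swarna background. Swarna is the drought-susceptible indica variety that served as recurrent parent, and its background is shared by all 4 groups. Plants grew 1 to a pot in a greenhouse and were either put under reproductive-stage drought stress (RDS) or kept well watered as control. Under RDS the soil was held at 75% of field capacity for 9 days and then lowered to 50%, and flag leaves were taken on day 12. The groups were DTY-IL drought, DTY-IL control, Swarna drought and Swarna control, with 4 libraries each from independent plants according to the labels.

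A quantitative trait locus is a stretch of chromosome whose alleles go with a difference in a trait, and it usually holds many genes. Backcrossing with selection moves the donor's allele of such a stretch, with the genes around it, into a variety that growers already use. An introgression line and its recurrent parent therefore differ in sequence mainly inside the donor fragments. The study placed its largest N22 fragment in DTY-IL on chromosome 1, over the whole of qDTY1.1. A described product was at hand for 2 of the loci reported here, LOC_Os01g66820, an inactive receptor kinase precursor, and LOC_Os01g67030, an auxin-responsive protein. The other loci are given by identifier alone.

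Library totals ran between 14250527 and 19367077 counts, and the 169 loci together held 0.378% to 0.463% of them. Levels are given in CPM, counts brought to the same library size with the trimmed mean of M values (TMM), and the factors of this scaling lay between 1.09 and 1.19 for DTY-IL drought, 0.835 and 0.906 for DTY-IL control, 1.22 and 1.31 for Swarna drought, and 0.762 and 0.848 for Swarna control. Total counts per locus ran from 12 to 166589 with a median of 1663, and 106 of the 169 had a mean of at least 50 counts per library. A difference was called when edgeR's quasi-likelihood test gave a p, adjusted over all 28283 loci by Benjamini-Hochberg, that did not exceed 0.05 and the log2 difference was at least 1 in size. Leaf tissue was sampled in bulk, so that fewer cells of a type and less RNA per cell cannot be told apart.

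For a view along the chromosome the 169 loci were parted at the outermost loci that the study's text places inside qDTY1.1. These need not be the ends of qDTY1.1, so loci below or above may also lie inside it. The 59 loci within are called the middle stretch. Below lay 45 loci, LOC_Os01g65510 to LOC_Os01g66110. Within lay 59 loci, LOC_Os01g66130 to LOC_Os01g67000. Above lay 65 loci, LOC_Os01g67040 to LOC_Os01g67970. Of the 169, 92 had no call in any of the 5 contrasts, and 55 of these also missed the adjusted p in all 5. A drought contrast called 66, a genotype contrast 23, and both kinds 13. These counts over several contrasts were not made for all loci tested, so they cannot be set beside the whole table. The share of each single contrast is given beside that of all loci below.

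Under drought, 12 of the 169 loci differed between DTY-IL and Swarna, 7 higher and 5 lower in DTY-IL. That is 7.10%, beside 6.59% of all loci tested (4.20% higher and 2.39% lower) and 8.80% of the other 3714 tested loci of chromosome 1. The adjusted p alone was passed by 24, and by 11.2% of all loci. By position, 2 of the 45 loci below, 5 of the 59 within and 5 of the 65 above were called. The libraries of the genotypes did not overlap at 38 of the 169 loci, and at 15.9% of all loci tested. The median log2 difference was 0.10, beside 0.01 over all loci. With library sizes as the only scaling the split was 7 higher and 8 lower. These fits took no account of a pairing of the libraries. With the number in the sample descriptions as a replicate block, 11 loci were called and 10 of the 12 were kept.

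LOC_Os01g65680, in the stretch below, had 4.54, 5.64, 5.41 and 5.58 CPM in DTY-IL drought, against 1.44, 2.69, 2.13 and 1.5 CPM in Swarna drought. All DTY-IL values lay above all Swarna values. The log2 difference was 1.44 (SE 0.22, adjusted p = 0.000296). LOC_Os01g65650, from the same stretch, had 6.5, 6.18, 8.18 and 10.8 CPM in DTY-IL drought and 2.59, 1.17, 2.29 and 1.96 CPM in Swarna drought. Again no library of one genotype reached into the range of the other. Its log2 difference of 1.98 (SE 0.48, adjusted p = 0.0131) missed the threshold with limma-voom, at an adjusted p of 0.0806.

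The better covered of the loci lower in DTY-IL under drought were LOC_Os01g66240 within the middle stretch and LOC_Os01g67160 and LOC_Os01g67190 above it. LOC_Os01g67160 had 3.17, 2.14, 2.44 and 2.79 CPM in DTY-IL drought, against 6.67, 6.65, 6.51 and 6.4 CPM in Swarna drought. The 4 Swarna libraries lay within a narrow band and the DTY-IL libraries were all far below it. The log2 difference was -1.31 (SE 0.20, adjusted p = 0.000307). LOC_Os01g66240 had 3.72, 2.32, 2.44 and 2.96 CPM in DTY-IL drought and 8.01, 6.01, 5.17 and 5.94 CPM in Swarna drought, and LOC_Os01g67190 had 1.48, 2.38, 1.8 and 1.25 CPM in DTY-IL drought and 3.12, 4.2, 4.27 and 4.49 CPM in Swarna drought. Neither showed an overlap between the genotypes. The log2 differences were -1.14 (SE 0.22, adjusted p = 0.00274) for LOC_Os01g66240 and -1.22 (SE 0.23, adjusted p = 0.00254) for LOC_Os01g67190. The fold of LOC_Os01g66240 was close to the limit of the call and fell to -0.98 without Swarna drought replicate 1 and to -0.99 (adjusted p = 0.0118) with the description number as a replicate block.

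**Figure D1:**
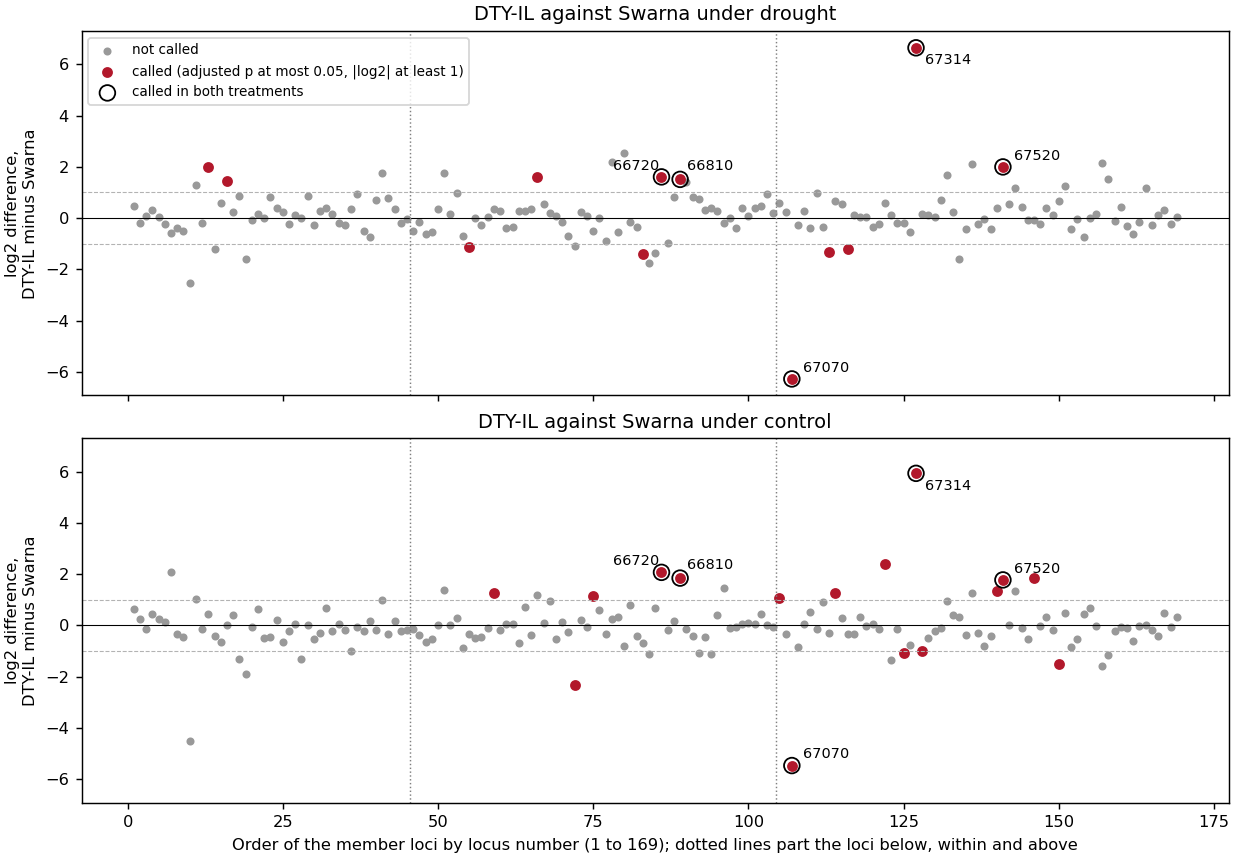
Log2 difference between DTY-IL and Swarna (vertical axis, fitted by edgeR) of each of the 169 loci in the order of their numbers (horizontal axis), under drought in the top panel and under control in the bottom panel. Red points were called, ringed points were called in both treatments, and under control no red point lies among the 45 loci below while 11 lie among the 65 above.

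Under control, 16 of the 169 loci differed between the genotypes, 11 higher and 5 lower in DTY-IL. That is 9.47%, beside 5.11% of all loci tested (2.99% higher and 2.12% lower) and 6.84% of the rest of chromosome 1. By position, 11 of the 65 loci above, 5 of the 59 within and 0 of the 45 below were called. Of the 45 below, 1 passed edgeR's adjusted p alone, as did 26 of the 169 and 9.90% of all loci, and 9 had an unadjusted p under 0.05, while DESeq2 called 0 and limma-voom 1. The 11 above lay between LOC_Os01g67040 and LOC_Os01g67630, a run of 46 loci. That run was cut at its first and last call, which raises its called share of 23.9%, beside 16.9% of the 65 above. The position of the calls was seen in the data and was not tested. No overlap between the genotypes was found at 39 of the 169 loci, and at 17.4% of all loci tested. The median log2 difference was -0.08, beside -0.03 over all loci, and with library sizes as the only scaling the calls split into 14 higher and 3 lower. Reads of both genotypes were quantified on transcripts of the japonica reference, and a difference in transcript level and a difference in how well the alleles match that reference cannot be told apart.

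**Figure D2:**
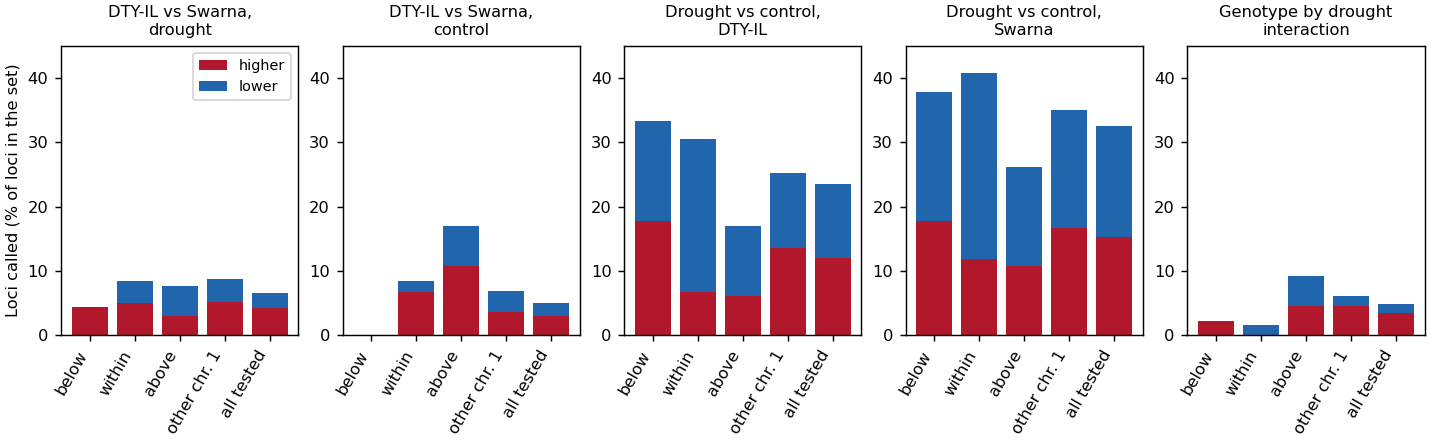
Share of loci called (vertical axis, percent of the loci in each set), with higher in red and lower in blue, for the loci below, within and above, the other tested loci of chromosome 1 and all 28283 tested loci, in each of the 5 contrasts. Under control the genotype calls take 0 of 45, 5 of 59 and 11 of 65 loci, while the drought calls take 15 of 45, 18 of 59 and 11 of 65 in DTY-IL and 17, 24 and 17 in Swarna, an order by share that is not kept with library sizes alone.

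LOC_Os01g67570 had the largest genotype difference under control among the called loci with a mean of at least 50 counts in the libraries compared. It had 66.3, 68.4, 43.2 and 168 CPM in DTY-IL control, against 23.6, 25.9, 23 and 24.8 CPM in Swarna control. Every DTY-IL library was higher, and DTY-IL control replicate 4 stood far above the other 3. The log2 difference was 1.83 (SE 0.29, adjusted p = 0.000743), and without that library it was 1.28 (adjusted p = 0.000163). Under drought the same locus had 211, 287, 297 and 257 CPM in DTY-IL drought and 297, 239, 315 and 272 CPM in Swarna drought. Those ranges overlapped, and the log2 difference was -0.09 (SE 0.28, adjusted p = 0.888).

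Other loci above the middle stretch were higher in DTY-IL under control by smaller amounts. LOC_Os01g67170 had 26.3, 27.6, 34.4 and 21 CPM in DTY-IL control, against 12.4, 10.5, 11.6 and 11.1 CPM in Swarna control, with no overlap and a log2 difference of 1.26 (SE 0.14, adjusted p = 1.42e-05). LOC_Os01g67510 had 12, 10.9, 12.4 and 14.1 CPM in DTY-IL control, against 5.67, 3.88, 4.61 and 5.29 CPM in Swarna control, also without overlap. Its log2 difference was 1.34 (SE 0.24, adjusted p = 0.00181). LOC_Os01g67040, the first locus after LOC_Os01g67030 that was kept, had 7.75, 8.62, 10.1 and 7.22 CPM in DTY-IL control, against 4.29, 3.01, 4.68 and 4.1 CPM in Swarna control. Each DTY-IL library was above each Swarna library. The log2 difference of 1.07 (SE 0.19, adjusted p = 0.00199) fell below 1, to 0.95 and 0.96, when Swarna control replicate 2 or DTY-IL control replicate 3 was left out. At LOC_Os01g67170 and LOC_Os01g67040 the difference under drought had the same sign and passed the adjusted p but was smaller than 1, at 0.65 (adjusted p = 0.00566) and 0.60 (adjusted p = 0.0494).

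LOC_Os01g67320 was the only called locus above that mean of 50 counts that was lower in DTY-IL under control. It had 33, 28.6, 21.8 and 26.2 CPM in DTY-IL control, against 61.7, 55.1, 62.7 and 39.9 CPM in Swarna control. The ranges did not meet. Its log2 difference of -1.0 (SE 0.20, adjusted p = 0.0041) lay on the limit of the call. The size fell just short of 1, down to -0.90, in 13 of the alternative settings besides a test against the fold itself, while the adjusted p was 0.0172 or less in these 13.

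Few genotype calls were made in both treatments. Of the 169 loci, 5 were called in both treatments in the same direction, and 0 were called in opposite directions. The 5 are 2.96%, beside 1.49% of all loci tested and 2.45% of the rest of chromosome 1. The contrasts use separate libraries. Over the 169 loci the log2 differences under drought and under control had a Pearson correlation of 0.62 and a Spearman correlation of 0.32, and 102 (60.4%) had the same sign. Over all 28283 loci the values were 0.32, 0.13 and 53.8%, and over the rest of chromosome 1 they were 0.38, 0.16 and 55.5%. Loci share the scaling factors of their library, so these are descriptions. Without LOC_Os01g67070 and LOC_Os01g67314, described next, the Pearson correlation over the other 167 was 0.37.

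LOC_Os01g67314 was found in DTY-IL alone. Its counts were 19, 8, 10 and 17 in DTY-IL drought and 6, 9, 6 and 6 in DTY-IL control, and 0 in each of the 8 Swarna libraries. All 8 DTY-IL libraries held the transcript at a low level, 0.475 to 1.04 CPM under drought and 0.342 to 0.597 CPM under control. Against a floor of 3 counts per library, DTY-IL was at least 4.90-fold higher than Swarna under drought (adjusted p = 0.00034) and at least 2.04-fold higher under control (adjusted p = 0.00279).

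LOC_Os01g67070 showed the reverse. It had 0 counts in each of the 8 DTY-IL libraries, against 8, 8, 15 and 14 counts in Swarna drought and 8, 2, 1 and 7 counts in Swarna control. Every Swarna library had at least 1 count, but some had hardly more. At the same floor DTY-IL was at least 3.49-fold lower than Swarna under drought (adjusted p = 0.00287) and at least 1.61-fold lower under control (adjusted p = 0.0148). A count of 0 here allows up to 3 counts per library, and such limits cover counting error only. LOC_Os01g67070 and LOC_Os01g67314 both lie above the middle stretch by number.

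Such loci were not numerous. At most 3 counts in every DTY-IL library, but more in some Swarna library, were found at 7 of the 169 loci, and at most 3 counts in every Swarna library but more in DTY-IL at 4. Over all 28283 tested loci the numbers were 1059 and 1071. None of the 11 had a mean of 50 counts in the other genotype, so that LOC_Os01g67070 and LOC_Os01g67314 were the best covered of them, with 63 and 81 counts in all.

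The other loci called in both treatments were detected in both genotypes and were higher in DTY-IL. LOC_Os01g66810, within the middle stretch, had 6.34, 6.41, 4.58 and 5.86 CPM in DTY-IL drought and 4.08, 4.57, 3.76 and 5.36 CPM in DTY-IL control. Swarna had 0.816, 1.71, 2.77 and 2.84 CPM under drought and 1.01, 1.42, 1.17 and 1.34 CPM under control. All 8 DTY-IL libraries lay above all 8 Swarna libraries. The log2 differences were 1.51 (SE 0.29, adjusted p = 0.0023) under drought and 1.84 (SE 0.31, adjusted p = 0.00115) under control. Its next neighbour by number is LOC_Os01g66820, the receptor kinase locus, whose genotype differences did not pass the test.

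LOC_Os01g66720, also within the stretch, had 3.72, 3.33, 8.82 and 4.38 CPM in DTY-IL drought and 5.81, 4.71, 6.04 and 3.13 CPM in DTY-IL control, against 1.3, 2.44, 1.76 and 1.14 CPM in Swarna drought and 1.51, 0.712, 1.32 and 1.1 CPM in Swarna control. The genotypes were again fully apart, with DTY-IL drought replicate 3 well above its group. The log2 differences were 1.61 (SE 0.34, adjusted p = 0.00485) under drought and 2.07 (SE 0.36, adjusted p = 0.0015) under control. Neither LOC_Os01g66720 nor LOC_Os01g66810 was called between treatments in either genotype.

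LOC_Os01g67520, above the stretch, had 2.62, 4.69, 5.41 and 3.64 CPM in DTY-IL drought and 1.52, 1.33, 1.14 and 1.79 CPM in DTY-IL control, against 0.864, 1.08, 0.64 and 1.5 CPM in Swarna drought and 0.567, 0.158, 0.439 and 0.473 CPM in Swarna control. Within each treatment the DTY-IL libraries were above the Swarna libraries, while DTY-IL control and Swarna drought overlapped. The log2 differences between genotypes were 2.00 (SE 0.32, adjusted p = 0.000515) under drought and 1.77 (SE 0.38, adjusted p = 0.00657) under control. It was the one locus of the 5 that also rose under drought in both genotypes, by a log2 difference of 1.51 (SE 0.31, adjusted p = 0.000911) in DTY-IL and 1.28 (SE 0.38, adjusted p = 0.00931) in Swarna, the second of which had an adjusted p of 0.0535 with the description number as a replicate block.

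**Figure D3:**
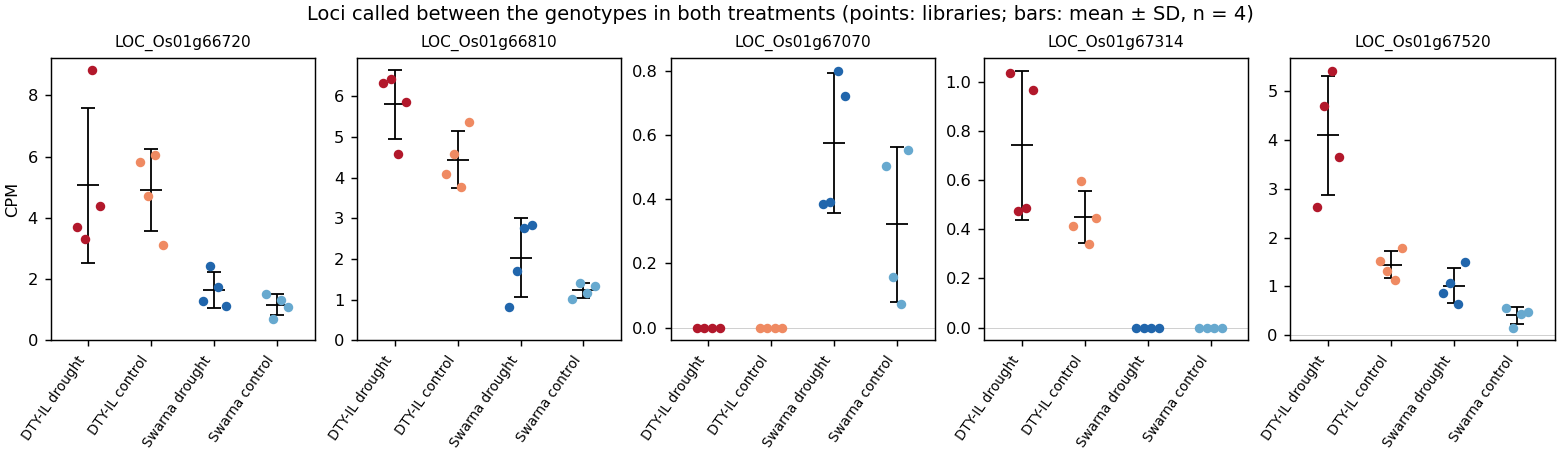
CPM (vertical axis, a scale of its own in each panel) in each library of the 4 groups for the 5 loci called between the genotypes in both treatments, with points for libraries and bars for mean ± SD (n = 4). LOC_Os01g67070 is at 0 in all 8 DTY-IL libraries and LOC_Os01g67314 at 0 in all 8 Swarna libraries, while the other 3 are detected in both genotypes and higher in DTY-IL within each treatment.

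More loci were called between treatments than between genotypes. In DTY-IL 44 of the 169 were called between drought and control, 16 higher and 28 lower under drought, which is 26.0% beside 23.5% of all loci tested (12.0% higher and 11.5% lower). In Swarna 58 were called, 22 higher and 36 lower, which is 34.3% beside 32.6% (15.2% higher and 17.3% lower). The adjusted p alone was passed by 70 loci in DTY-IL and 92 in Swarna, beside 40.3% and 49.5% of all loci. The groups did not overlap at 56 loci in DTY-IL and 83 in Swarna, beside 35.0% and 46.8% of all loci tested. The median log2 difference of the 169 was -0.08 in DTY-IL and -0.09 in Swarna, beside 0.03 and 0.06 over all loci. The split depends on the scaling. With library sizes alone the calls were 28 higher and 16 lower in DTY-IL and 51 higher and 22 lower in Swarna, while the median over all loci moved to 0.43 in DTY-IL and 0.70 in Swarna.

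By position, 15 of the 45 loci below, 18 of the 59 within and 11 of the 65 above were called between treatments in DTY-IL, and in Swarna 17, 24 and 17. With library sizes alone the calls were 11 below, 17 within and 16 above in DTY-IL and 20, 25 and 28 in Swarna, and the adjusted p alone, with TMM, was passed by 19, 25 and 26 in DTY-IL and by 25, 35 and 32 in Swarna. Among the 59 within, 14 were lower and 4 higher under drought in DTY-IL and 17 lower and 7 higher in Swarna, but with library sizes alone the numbers were 9 lower and 8 higher in DTY-IL and turned to 8 lower and 17 higher in Swarna. The differences between the stretches were not tested. Loci next to each other in the order moved either way. Among neighbours both called, 9 pairs in DTY-IL moved the same way and 4 moved opposite ways, and in Swarna 13 and 8. Over the whole table the pairs numbered 1269 and 589 in DTY-IL and 2265 and 1134 in Swarna.

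Most calls in DTY-IL were also made in Swarna. In all, 36 loci were called in both genotypes in the same direction, 12 higher and 24 lower, which is 21.3% beside 18.3% of all loci tested, and 0 in opposite directions. With library sizes alone the shared calls were 23 higher and 14 lower. The fitted size was larger in Swarna at 27 of the 36, with a median of 1.73 in DTY-IL and 2.18 in Swarna, and the interaction passed the adjusted p at 3. The median size over all loci tested, called or not, was also larger in Swarna, 0.79 against 0.64 in DTY-IL. How many shared calls of the whole table were larger in Swarna was not counted. Over the 169 loci the drought differences of the 2 genotypes, which share no library, had a Pearson correlation of 0.82 and a Spearman correlation of 0.73, and 130 (76.9%) had the same sign. For all loci these were 0.73, 0.70 and 77.7%.

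A further 8 loci were called in DTY-IL alone and 22 in Swarna alone, which does not show that they responded in 1 genotype only. Over the whole table, too, more loci were called in Swarna alone than in DTY-IL alone. There 6641 of 28283 loci were called in DTY-IL and 9212 in Swarna, and 5164 in both with the same sign. Of the 8, all had the same sign in Swarna and 6 passed the adjusted p there. edgeR called the interaction at 0 of these 8, and 4 had an unadjusted p under 0.05. Of the 22, 20 had the same sign in DTY-IL, 6 passed the adjusted p there, and the interaction was called at 3. The interaction passed the adjusted p alone at 4 of these 22, and 12 had an unadjusted p under 0.05.

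**Figure D4:**
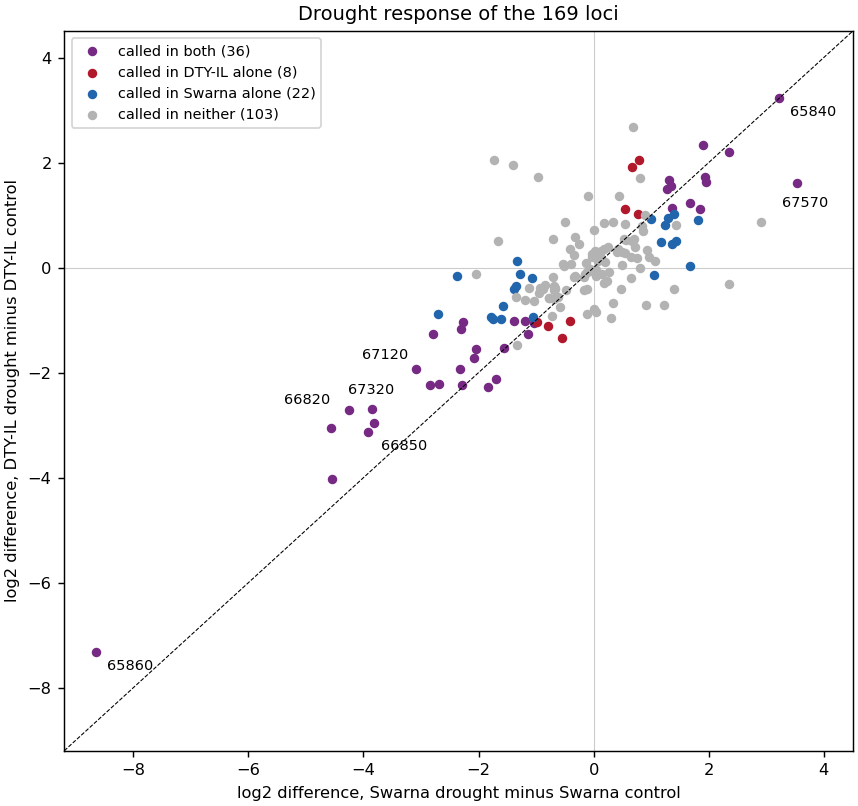
Log2 difference between drought and control in DTY-IL (vertical axis) and in Swarna (horizontal axis) for the 169 loci, coloured by where each was called, with the dashed line marking equal differences. The 36 loci called in both genotypes lie at the lower left and upper right, and 27 of them have the larger difference in Swarna. Over all loci tested, called or not, the median size is also larger in Swarna, 0.79 against 0.64. The like count among shared calls of the whole table was not made.

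Among the loci that fell under drought, LOC_Os01g67120 held the most counts of all 169. It had 285, 355, 251 and 263 CPM in DTY-IL drought and 1132, 1211, 1051 and 1023 CPM in DTY-IL control. Swarna had 99.8, 129.9, 187 and 167 CPM under drought and 1140, 1276, 1245 and 1272 CPM under control. Both genotypes dropped far out of their control range, and Swarna dropped further. The log2 differences were -1.94 (SE 0.19, adjusted p = 2.34e-07) in DTY-IL and -3.08 (SE 0.19, adjusted p = 8.47e-10) in Swarna. Under drought the level was higher in DTY-IL, by a log2 difference of 0.98 (adjusted p = 0.00178) that stayed just short of the fold limit.

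LOC_Os01g66850, within the stretch, had 2.08, 5.23, 2.48 and 2.51 CPM in DTY-IL drought and 28, 28.6, 31 and 20.2 CPM in DTY-IL control. Swarna had 1.34, 2.88, 3.31 and 2.32 CPM under drought and 44.2, 25.9, 43.8 and 35.2 CPM under control. Its drought libraries were all far below its control libraries. In log2 units the differences were -3.14 (SE 0.29, adjusted p = 1.72e-07) in DTY-IL and -3.92 (SE 0.30, adjusted p = 8.97e-09) in Swarna. LOC_Os01g66510 had 4.32, 2.97, 3.46 and 3.42 CPM in DTY-IL drought and 16.5, 15.6, 18.1 and 16.8 CPM in DTY-IL control. Swarna had 2.83, 3.91, 3.31 and 3.41 CPM under drought and 27.6, 22.5, 26.1 and 20.9 CPM under control. Under drought the ranges of the genotypes overlapped. The fitted differences on the log2 scale were -2.24 (SE 0.15, adjusted p = 3.59e-09) in DTY-IL and -2.85 (SE 0.15, adjusted p = 1.25e-10) in Swarna.

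LOC_Os01g67720 had 8.69, 11.6, 11.3 and 9.68 CPM in DTY-IL drought and 38.5, 41.8, 37 and 40.6 CPM in DTY-IL control. Swarna had 11.8, 14, 16.4 and 13.9 CPM under drought and 75.6, 58.9, 75.2 and 71.9 CPM under control. It fell in both genotypes, with log2 differences of -1.93 (SE 0.13, adjusted p = 5.03e-09) in DTY-IL and -2.32 (SE 0.13, adjusted p = 2.81e-10) in Swarna. Its control level was lower in DTY-IL, by -0.83 on the log2 scale (adjusted p = 0.000442), which did not reach the fold limit. LOC_Os01g66350 had 38.4, 55.3, 67.1 and 49.4 CPM in DTY-IL drought and 253, 267, 285 and 204 CPM in DTY-IL control. Swarna had 65.2, 76.5, 75.6 and 53.5 CPM under drought and 244, 193, 280.3 and 252 CPM under control. Drought and control were fully apart in both genotypes. The log2 differences were -2.26 (SE 0.18, adjusted p = 3.72e-08) in DTY-IL and -1.84 (SE 0.18, adjusted p = 1.86e-07) in Swarna.

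LOC_Os01g67320 fell in both genotypes to overlapping ranges, with 5.25, 3.33, 4.48 and 3.93 CPM in DTY-IL drought and 5.04, 4.4, 3.2 and 2.43 CPM in Swarna drought, set against the control values given above. In log2 units the differences were -2.69 (SE 0.22, adjusted p = 3.92e-08) in DTY-IL and -3.86 (SE 0.23, adjusted p = 4.01e-10) in Swarna. LOC_Os01g65650 had 2.59, 1.17, 2.29 and 1.96 CPM in Swarna drought, against 17.6, 7.36, 14.6 and 15.9 CPM in Swarna control, a log2 difference of -2.79 (SE 0.49, adjusted p = 0.000124). In DTY-IL control its values were 20.3, 26.6, 25.8 and 2.83 CPM, and DTY-IL control replicate 4 stood apart, below every DTY-IL drought value. The difference in DTY-IL, -1.26 (SE 0.44, adjusted p = 0.0309), missed the threshold in 11 alternative settings besides the test against the fold.

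LOC_Os01g66820, the receptor kinase locus, was rare in flag leaves. Its counts were 5, 5, 2 and 1 in DTY-IL drought and 12, 17, 34 and 12 in DTY-IL control, and 3, 0, 0 and 2 in Swarna drought and 24, 20, 15 and 14 in Swarna control. All drought libraries were below all control libraries in both genotypes. The log2 difference in DTY-IL was -2.70 (SE 0.56, adjusted p = 0.000809). In Swarna, where no drought library exceeded 3 counts, it was at least 8.75-fold lower under drought (adjusted p = 2.28e-05). The interaction was not called (log2 difference 1.54, adjusted p = 0.335). LOC_Os01g67030, the auxin-responsive protein locus, had 1 count in all, in a DTY-IL drought library, and was below the threshold for testing, so that no difference was detectable at this depth.

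LOC_Os01g65860 was chosen after its values were seen, since no drought library held it. It had 0 counts in each of the 8 drought libraries, against 0.554, 0, 4.05 and 0 CPM in DTY-IL control and 3.09, 3.56, 2.05 and 3.23 CPM in Swarna control. The DTY-IL groups overlap at 0, while every Swarna control library had the transcript. LOC_Os01g65860 was nevertheless called lower under drought in DTY-IL by edgeR (adjusted p = 0.0124). That call was lost with limma-voom (adjusted p = 0.0561) and with the description number as a replicate block (adjusted p = 0.152). In Swarna LOC_Os01g65860 was at least 19.7-fold lower under drought at the floor of 3 counts per library (adjusted p = 0.00194). LOC_Os01g66250 also had 0 counts in all 8 drought libraries and was called lower in both genotypes, but had only 16 counts in all. At the same floor its bound was 1.12-fold in Swarna. In DTY-IL the bound was 0.687-fold, which sets no limit to a fall.

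Loci that rose were the smaller group with TMM scaling and, as given above, the larger one with library sizes alone. LOC_Os01g67570 rose the most in Swarna among the 169, with the values given above, by a log2 difference of 3.53 (SE 0.31, adjusted p = 4.99e-08), against 1.61 (SE 0.29, adjusted p = 0.000235) in DTY-IL. Without DTY-IL control replicate 4 the difference in DTY-IL was 2.15 (adjusted p = 1e-07). LOC_Os01g66930, within the stretch, had 13.3, 15.6, 17.3 and 14.2 CPM in DTY-IL drought and 5.54, 4.84, 4.73 and 4.47 CPM in DTY-IL control. Swarna had 22.2, 21.8, 19.7 and 16 CPM under drought and 6.11, 5.14, 4.98 and 4.26 CPM under control. The drought libraries were all above the control libraries, with log2 differences of 1.62 (SE 0.15, adjusted p = 1.76e-07) in DTY-IL and 1.95 (SE 0.15, adjusted p = 1.07e-08) in Swarna.

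LOC_Os01g65560 had 14.2, 10.2, 13.8 and 11.7 CPM in DTY-IL drought and 3.46, 2.72, 4.33 and 4.47 CPM in DTY-IL control. Swarna had 10.8, 12.3, 12.3 and 12.4 CPM under drought and 4.29, 1.82, 2.42 and 3.94 CPM under control. It rose in both genotypes, by log2 differences of 1.73 (SE 0.23, adjusted p = 9.44e-06) in DTY-IL and 1.93 (SE 0.23, adjusted p = 1.95e-06) in Swarna, and the interaction was -0.20 (SE 0.32, adjusted p = 0.788). LOC_Os01g65840, chosen after its values were seen, had a larger fitted rise at a lower level. It had 2.35, 2.2, 2.19 and 1.65 CPM in DTY-IL drought and 0.208, 0.199, 0.114 and 0.372 CPM in DTY-IL control. Swarna had 2.69, 2.35, 2.08 and 2.68 CPM under drought and 0.252, 0.396, 0.146 and 0.237 CPM under control. Nothing overlapped between treatments, and the log2 differences were 3.23 (SE 0.34, adjusted p = 6.4e-07) in DTY-IL and 3.22 (SE 0.33, adjusted p = 3.02e-07) in Swarna.

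LOC_Os01g65520 had 28.6, 25.6, 31.9 and 34.1 CPM in DTY-IL drought and 13.5, 12.9, 13.7 and 11.2 CPM in DTY-IL control. Swarna had 59.1, 27.4, 26.5 and 25.6 CPM under drought and 12.2, 10.7, 9.66 and 10.9 CPM under control. Swarna drought replicate 1 was far above the rest of its group. The rise of 1.67 (SE 0.22, adjusted p = 6.93e-06) in Swarna was 1.25 (adjusted p = 6.38e-07) without that library, next to 1.23 (SE 0.22, adjusted p = 0.000244) in DTY-IL.

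The remaining loci that rose and were picked by the same rule averaged the following. LOC_Os01g65904 had 66.2 ± 15.1 CPM in DTY-IL drought and 20.8 ± 4.18 CPM in DTY-IL control, a log2 difference of 1.67 (adjusted p = 0.000134). LOC_Os01g65920 had 167 ± 34.6 CPM in Swarna drought and 64.6 ± 7.57 CPM in Swarna control, a log2 difference of 1.37 (adjusted p = 7.9e-06). LOC_Os01g67090 had 4.79 ± 2.59 CPM in DTY-IL drought and 1.64 ± 0.295 CPM in DTY-IL control, a log2 difference of 1.55 (adjusted p = 0.00133). These are means ± SD of 4 libraries, and the 3 loci were called in both genotypes, LOC_Os01g65920 in DTY-IL not without DTY-IL drought replicate 1 (0.90). LOC_Os01g65790 was called in DTY-IL, with 5.1 ± 1.93 CPM under drought and 1.23 ± 0.37 CPM under control and a log2 difference of 2.06 (adjusted p = 0.00149). In Swarna its difference was 0.79 (adjusted p = 0.154), and the interaction was not called (adjusted p = 0.261). LOC_Os01g67510 was called in Swarna, with 13.2 ± 3.24 CPM under drought and 4.86 ± 0.79 CPM under control and a log2 difference of 1.43 (adjusted p = 7.13e-05). In DTY-IL, where its control level was already higher, the difference was 0.51 (adjusted p = 0.0835), and the interaction was -0.93 (adjusted p = 0.0989).

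Whether drought acted differently in the genotypes was tested by the interaction, the drought difference in DTY-IL minus that in Swarna. It was called at 8 of the 169 loci, 4 positive and 4 negative, which is 4.73% beside 4.91% of all loci tested (3.52% positive and 1.39% negative). The adjusted p alone was passed by 10, and by 6.42% of all loci. Of the 8, 6 lay above the middle stretch, 1 within and 1 below. Leaving out 1 library kept 4 to 7 of these 8 calls. It kept 4 without Swarna drought replicates 1 or 3 or Swarna control replicate 1, and 5 without DTY-IL drought replicate 1, DTY-IL control replicates 1 or 4, Swarna drought replicates 2 or 4, or Swarna control replicates 2 or 3. With library sizes alone 11 were called, 2 positive and 9 negative.

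LOC_Os01g67570 and LOC_Os01g67120 carried the most counts among them. At LOC_Os01g67570 the mean was 263 ± 38.5 CPM in DTY-IL drought and 86.5 ± 55.7 CPM in DTY-IL control. Swarna had 281 ± 33.1 CPM under drought and 24.3 ± 1.28 CPM under control (SD, n = 4 each). The genotypes met under drought and were apart under control. The interaction was -1.92 (SE 0.40, adjusted p = 0.0112), and -1.38 (adjusted p = 0.00483) without DTY-IL control replicate 4. At LOC_Os01g67120 the genotypes were instead apart under drought and overlapped under control, as the values above show, and the interaction was 1.14 (SE 0.25, adjusted p = 0.0146). It dropped to 0.99 (adjusted p = 0.0166) without Swarna drought replicate 1.

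LOC_Os01g65680 fell in Swarna, while in DTY-IL the drought and control libraries overlapped. It had 5.19, 4.44, 5.3 and 4.54 CPM in DTY-IL control, against 3.91, 6.33, 4.46 and 4.89 CPM in Swarna control, beside the drought values given above. Only Swarna drought left the range of the control libraries. The drought difference was 0.12 (SE 0.21, adjusted p = 0.682) in DTY-IL and -1.33 (SE 0.22, adjusted p = 6.21e-05) in Swarna, and the interaction was 1.45 (SE 0.30, adjusted p = 0.0103). With library sizes alone the fall in Swarna was -0.66 (adjusted p = 0.0170).

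LOC_Os01g67320, which fell in both genotypes, had an interaction of 1.17 (SE 0.30, adjusted p = 0.0272). LOC_Os01g67160 had 4.91, 3.25, 4.22 and 4.54 CPM in DTY-IL control, against 4.66, 3.8, 5.49 and 6.7 CPM in Swarna control, ranges that overlap, next to the separate drought ranges. Its drought difference was -0.68 (adjusted p = 0.0114) in DTY-IL and 0.34 (adjusted p = 0.149) in Swarna, with an interaction of -1.03 (SE 0.28, adjusted p = 0.0351). LOC_Os01g67134 had 206, 208, 226 and 205 CPM in DTY-IL drought and 395, 396, 207 and 637 CPM in DTY-IL control. Swarna had 283, 269, 262 and 262 CPM under drought and 167, 257, 194 and 256 CPM under control. DTY-IL control was widely spread, with replicate 4 highest and replicate 3 inside the drought range. Its interaction of -1.25 (SE 0.33, adjusted p = 0.0315) was -0.96 (adjusted p = 0.0559) without DTY-IL control replicate 4. The calls of LOC_Os01g67320, LOC_Os01g67134 and LOC_Os01g67160 were lost at adjusted p values up to 0.0775 in 5, 10 and 12 alternative settings other than the test against the fold.

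The remaining pair, LOC_Os01g67630 and LOC_Os01g66590, had few counts and is named after its values were seen. LOC_Os01g67630 had 0.492, 0.891, 1.12 and 0.911 CPM in DTY-IL drought and 0.761, 0.862, 0.969 and 1.27 CPM in DTY-IL control. Swarna had 0.288, 0.684, 0.853 and 0.31 CPM under drought and 2.58, 4.43, 1.54 and 2.6 CPM under control. Swarna control alone was high. The interaction was 2.20 (SE 0.56, adjusted p = 0.0268). LOC_Os01g66590 had 1.2, 0.653, 1.12 and 1.37 CPM in DTY-IL drought and 0.83, 0.862, 1.37 and 1.19 CPM in DTY-IL control. Swarna had 1.06, 1.96, 1.49 and 1.6 CPM under drought and 0.378, 0.475, 0.659 and 0.394 CPM under control. Here Swarna control was lowest, with its top library just inside the range of DTY-IL drought. The interaction was -1.64 (SE 0.45, adjusted p = 0.0387), and its call was lost in 14 alternative settings besides the test against the fold, as was that of LOC_Os01g67630 in 5.

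**Figure D5:**
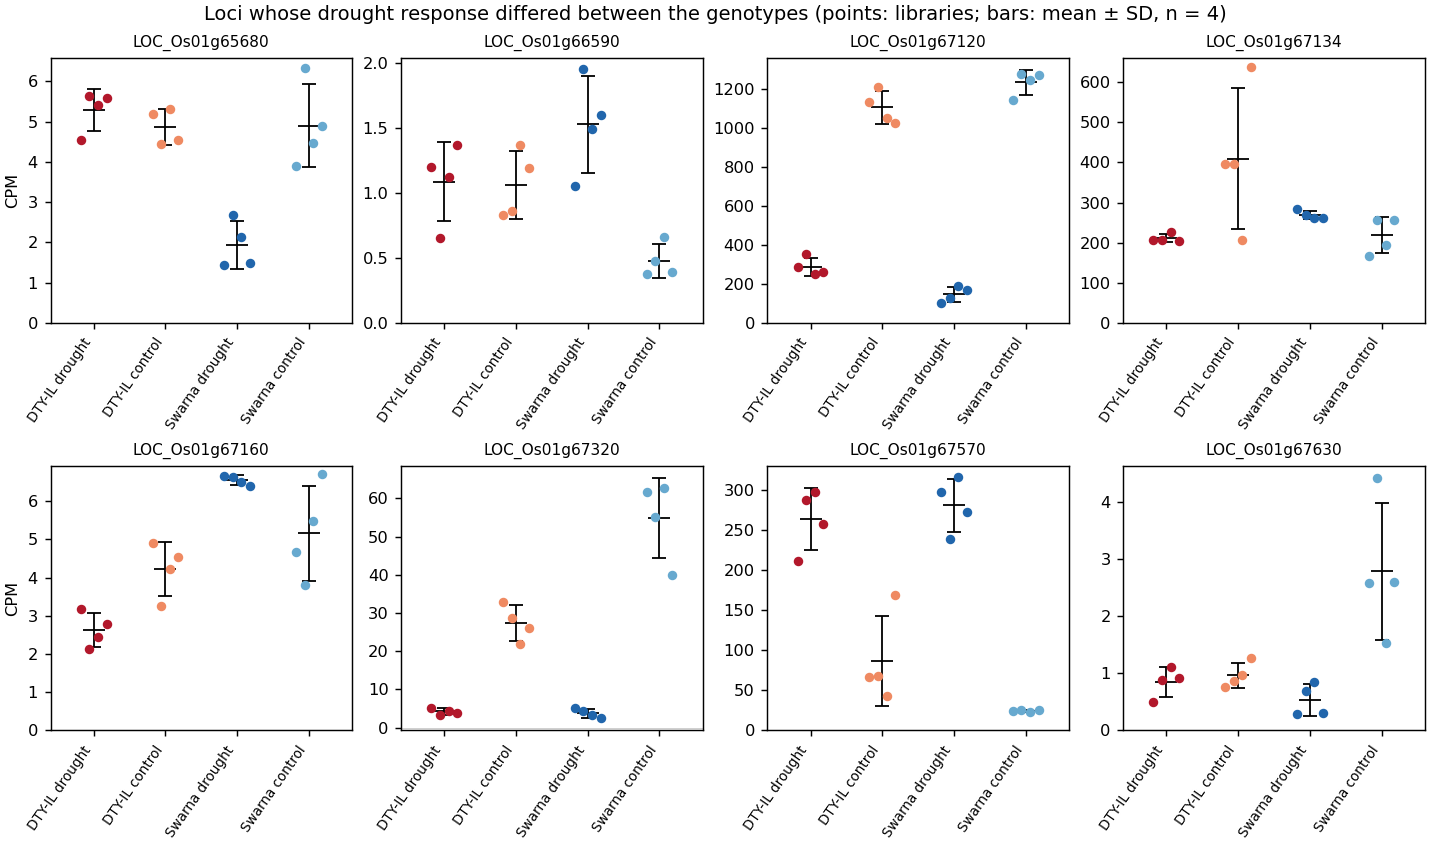
CPM (vertical axis, a scale of its own in each panel) in each library of the 4 groups for the 8 loci where the interaction was called, with points for libraries and bars for mean ± SD (n = 4). The 8 are 4.73% of the 169, beside 4.91% of all loci tested. At LOC_Os01g67570 the genotypes are apart under control and meet under drought, at LOC_Os01g65680 only Swarna drought is low, and at LOC_Os01g67134 the DTY-IL control libraries spread over 207 to 637 CPM.

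The loci with the most counts after LOC_Os01g67120 were LOC_Os01g67134, LOC_Os01g67000, LOC_Os01g67570 and LOC_Os01g67054, and among these 5 only LOC_Os01g67570 was called between the genotypes. LOC_Os01g67000 had 162 ± 19.9 CPM in DTY-IL drought and 217 ± 11.8 CPM in DTY-IL control. Swarna had 142 ± 14.4 CPM under drought and 230.0 ± 59.4 CPM under control (SD, n = 4 each). It was not called in any contrast. LOC_Os01g67054 had 238 ± 53.4 CPM in DTY-IL drought and 109 ± 7.27 CPM in DTY-IL control, a log2 difference of 1.12 (SE 0.18, adjusted p = 0.000104). In Swarna it had 201 ± 53.3 CPM under drought and 137 ± 17.8 CPM under control, and the difference of 0.55 (SE 0.18, adjusted p = 0.0188) was too small for a call. The call in DTY-IL was lost without DTY-IL drought replicate 2 (0.98). The genotype differences of LOC_Os01g67054 were 0.24 under drought and -0.33 under control, and neither passed the test.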

How the data were processed

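The authors sequenced flag-leaf RNA on an Illumina platform, removed adapters and poor bases with Trimmomatic and estimated transcript abundance with Salmon 0.7.2 on the japonica genome IRGSP-1.0 with the RGAP 7 annotation, and summed them to genes. Values in the deposited table are expected counts per locus, given as whole numbers, and whether these were scaled by transcript length is not given in the sources used here. The authors also deposited 4 contrast tables with fold changes and p-values, which were not used.

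Counts were fitted in edgeR 4.0.16 (R 4.3.3) with TMM scaling and a quasi-likelihood model of the 4 group means, for loci with at least 10 counts in total (28283 of 55801), and p-values were adjusted by Benjamini-Hochberg over all of them. Tests were two-sided. The standard error was derived from the fitted difference and its F statistic. The fit was tested on simulated data first. The floor was 3 counts per library, and folds against a group whose libraries all lay at or under it are lower bounds. The floors cover counting error only.

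Pots stood in randomized complete blocks, but whether the numbers in the titles or descriptions mark a block is not given in the sources used here. The pairing was therefore checked from the correlation of same-numbered libraries' deviations from their group means. Between DTY-IL drought and Swarna drought, the description number gave 3 pairs, with correlations of 0.147 to 0.222, and was taken to pair them. The main fit left this pairing out, and it entered only as an alternative. In the other comparisons at least 1 pair was under 0.1.

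Named loci were, per genotype contrast, up to 12 called per direction with a mean of at least 50 counts, all called in both genotype contrasts, up to 8 per direction for the interaction, up to 6 per direction per drought contrast without overlap, those the study's text names, and the 5 with the most counts. The members and lists were chosen with earlier results of these data known. Alternatives were other scalings (DESeq2-type size factors, library size alone), no filter and filterByExpr, the tools DESeq2 1.42.0 and limma-voom (limma 3.58.1), the adjusted p without a fold limit, a test against the fold (glmTreat), replicate blocks, fits of the compared groups alone and removal of each library. No locus identifier matched the gene table at hand (0 matches), so that coordinates and sequences are not given and the leaf label was not checked by marker genes. Identifiers of near-identical or overlapping genes could not be told apart. Plots used matplotlib 3.10.9.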

Additional observations from a re-analysis of the deposited data

Results flagged for a closer look

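In 7 of 115 groups of 4 libraries tested among the named loci, 1 library lay apart from the other 3 by Dixon's criterion for 4 values, which chance gives in about 1 in 20 groups. Swarna drought replicate 1 was such a library 3 times. It had 59.1 CPM at LOC_Os01g65520, where the others had 25.6 to 27.4, it had 280.2 CPM at LOC_Os01g67054, where the others had 166 to 180.3, and it had 10.8 CPM at LOC_Os01g65560, where the others had 12.3 to 12.4. At LOC_Os01g65904 the DTY-IL drought replicate 3 had 43.7 CPM beside 71.8 to 75.2, and the Swarna control replicate 2 had 42.9 CPM beside 17.3 to 18.3. At LOC_Os01g66850 the DTY-IL drought replicate 2 had 5.23 CPM beside 2.08 to 2.51. At LOC_Os01g67134 the DTY-IL drought replicate 3 had 225.7 CPM beside 204.7 to 207.6.

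By edgeR's interaction test 8 of the 169 loci were called, which is 4.73% beside 4.91% of all loci tested. The test against the fold called 0. In other alternatives the call was lost at LOC_Os01g66590 in 14, LOC_Os01g67160 in 12 and LOC_Os01g67134 in 10. It was lost at LOC_Os01g67320 and LOC_Os01g67630 in 5 each and at LOC_Os01g67120 in 2. The interaction was positive at LOC_Os01g65680 (1.45, adjusted p = 0.0103), LOC_Os01g67120 (1.14, adjusted p = 0.0146), LOC_Os01g67320 (1.17, adjusted p = 0.0272) and LOC_Os01g67630 (2.20, adjusted p = 0.0268). It was negative at LOC_Os01g67570 (-1.92, adjusted p = 0.0112), LOC_Os01g66590 (-1.64, adjusted p = 0.0387), LOC_Os01g67134 (-1.25, adjusted p = 0.0315) and LOC_Os01g67160 (-1.03, adjusted p = 0.0351).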

How the results depend on the processing

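None of the 74 locus results given with a call changed direction under any of the 27 alternatives, and 54 kept their call in all of those that could be computed, except in the test against the fold. The adjusted p alone and the test against the fold kept the main fit's differences, so no direction could change there. The adjusted p alone could not lose a call either, since every call had passed it. The test against the fold lost 39 of the 74 calls. With the adjusted p alone the calls numbered 24 between genotypes under drought, 26 under control and 9 in both, and 70 between treatments in DTY-IL, 92 in Swarna and 59 in both. With glmTreat, the test against the fold, they numbered 3, 1 and 1 between genotypes and 21, 33 and 17 between treatments, and the interaction had 0 calls. With filterByExpr, which kept 137 of the 169 loci, 3 loci were called between genotypes in both treatments. Leaving out 1 library at a time gave 12 to 18 genotype calls under drought, 11 to 17 under control and 5 to 5 in both, 36 to 45 drought calls in DTY-IL, 54 to 61 in Swarna and 29 to 37 in both, and 4 to 8 interaction calls.

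Same-numbered libraries of different groups deviated together weakly or not at all, with correlations between -0.193 and 0.222 by title number and between -0.198 and 0.222 by description number, and every pair was over 0.1 only for the description number between DTY-IL drought and Swarna drought. With the title number as a replicate block the calls were 13 between genotypes under drought, 13 under control and 5 in both, 40 between treatments in DTY-IL, 57 in Swarna and 33 in both, and 8 for the interaction. With the description number as the block they were 11, 14, 5, 39, 54, 30 and 7, and 10 of the 12 genotype calls under drought were kept, LOC_Os01g66240 not among them.

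Low counts limit what could be seen, since 32 of the 169 loci did not pass filterByExpr and 63 had a mean under 50 counts per library. The cause of these changes was not tested.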
